A study of Mus musculus with 10 samples.

Results

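The osteoblast lineage transcription factors *Runx1*, *Runx2*, *Runx3*, *Cbfb*, *Sp7*, *Atf4* and *Zfp521* were followed in bulk RNA-seq libraries of the mouse anterior fontanelle (AF), the soft connective tissue between the skull bones. Members were taken by gene symbol, and all 7 were found among the 23080 genes of the count table and among the 16267 genes tested. The tissue, from the E18.5 stage, mixed suture mesenchyme with bone, and neither skin nor brain was part of it. Of the 10 libraries, 5 carry the label NCC Fgfr2 KO with the genotype Wnt1-Cre; Fgfr2fl/fl, and 5 carry the label WT. In the study's plots the controls are marked as Fgfr2 fl/fl, so that they may also carry the floxed alleles but no Cre driver, and the study calls the embryos littermates without saying which libraries pair. The Wnt1-Cre driver recombines floxed *Fgfr2*, which encodes an FGF receptor, in neural crest cells and their descendants, while other cells in the excised tissue keep the intact gene. The sources used here do not say whether a library holds RNA of a single embryo or of a pool. The comparison asks whether the factors of osteogenic differentiation differ in level between the AF of the 2 genotypes.

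RUNX2 is the factor without which osteoblasts do not form, and SP7 (osterix) acts after it in the same lineage. RUNX proteins bind DNA as heterodimers with CBFB, which does not bind DNA itself but raises the affinity of its partner. RUNX1 is best known from blood stem cells and RUNX3 from T cells and maturing chondrocytes, and both are also found in skeletal precursors. ATF4 is a bZIP factor of the amino acid stress response that promotes matrix production and late osteoblast genes, and ZFP521 is a zinc finger protein that antagonizes RUNX2 and EBF1. In bone of the skull vault, mesenchymal cells at the osteogenic fronts pass through this series of factors without a cartilage stage.

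Total counts per library, which are estimated counts rounded to whole numbers, ranged from 21814166 to 28515403 in the control group and from 20774645 to 25748579 in the mutant group, of which 18.7% to 33.6% lay in ribosomal RNA genes. Levels are given as CPM, library-scaled counts with TMM factors applied. *Fgfr2* itself, the targeted gene, was at 176 to 235 CPM in the control libraries and at 273 to 357 CPM in the mutant libraries (edgeR's quasi-likelihood test, log2 fold change 0.67, standard error 0.090, adjusted p = 0.0487). The groups did not overlap, but the call rests close to the threshold. No gene, *Fgfr2* included, was called higher with libraries scaled by their total alone, with the replicate number as a block, or with *Xist* as a covariate. The same held without any single library other than control-labelled replicate 2 or mutant-labelled replicate 2. Since these total counts go against the genotype, the libraries are called control-labelled and mutant-labelled, and each direction below is that of the labels. Marker lists that ran with the labels (osteoblast lower, AF connective tissue higher) are given next, and no value here tests the labels themselves. Counts per gene cannot tell the floxed, recombined transcript from the full one. Osteoblast markers were abundant in all libraries, with 10 of 10 detected, and their sum, most of it *Col1a1*, ran from 65965 to 77623 CPM among the control-labelled and from 54034 to 78317 CPM among the mutant-labelled libraries. Gene by gene, 10 of 10 were lower by label, with a median log2 fold change of -0.35, and 6 of them passed an unadjusted p-value of 0.05, where 3.82% of all genes tested were lower by it.

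Some marker lists of other cells differed by label. The summed level of 4 AF connective tissue markers (*Scx*, *Tnmd*, *Mkx*, *Matn4*) ran from 148 to 179 CPM by control label and from 199 to 278 CPM by mutant label, without overlap, and all 4 were higher by label. Markers of immature blood cells and granulocytes (9 of 9 in the table) summed to 130.2 to 159 CPM and 174 to 217 CPM, also without overlap. Chondrocyte markers (8 of 8 in the table, 4 higher and 4 lower by label) overlapped in their sum, at 1335 to 1668 CPM by control label and 1232 to 1651 CPM by mutant label. One of them, *Col2a1*, the main collagen of cartilage, was at 47.3 to 68.5 CPM and 70.7 to 153 CPM, without overlap (log2 fold change 0.88, unadjusted p = 0.00095 from edgeR). Of 9 T and NK cell markers, 4 were in the table and they summed to at most 5.27 CPM, while *Cd3e*, *Cd3g*, *Cd3d*, *Cd8a* and *Prf1* were not in it. Skeletal muscle markers were high in control-labelled replicate 2 (713 CPM) and mutant-labelled replicate 1 (708 CPM) against 17.4 to 140.3 CPM elsewhere, and neuronal markers were high in mutant-labelled replicate 2 (450 CPM against at most 192 CPM elsewhere). The part of these cells in the results was not tested, and in bulk tissue fewer cells of a type and less RNA per cell cannot be told apart.

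The promoters of the 3 *Runx* genes are shown first because they hold matches to the DNA site that RUNX proteins themselves recognize. RefSeq promoters, from 250 before the start site to 50 after it (GRCm38.p6), were found for *Runx1* and *Runx3* (an upstream and a downstream promoter each), *Runx2*, *Cbfb* and *Atf4*. *Runx2* has 13 annotated transcripts, and starts of it outside the promoter given here were not searched. The extended RUNX site TGTGGTT, searched on both strands, occurs in 5.27% of the 32851 promoters of that table, and the shorter TGTGGT that it contains occurs in 16.8%. It was found 2 times in the upstream *Runx1* promoter, 3 times in the *Runx2* promoter and 2 times in the upstream *Runx3* promoter. In each of the 3 promoters a pair of sites lay on the same strand with 8 bases between their first bases, a spacing found in 5 of the 32851 promoters (0.0152%). The 3 *Runx* promoters are themselves among these 5, and no other spacing was counted, so this share is a description and no independent background. The windows around the sites are given below on the strand of the gene, with the sites in capitals as their reverse complement.
Runx1 pair: ataaacAACCACAgAACCACAagttgg
Runx2 pair: acaaacAACCACAgAACCACAagtgcg
Runx3 pair: tccctcAACCACAgAACCACAaggcca
Runx2 single site: gtcacaAACCACAtgattc

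The *Runx1* window lies at chr16:92826027-92826053 on the minus strand, the *Runx2* pair at chr17:44814585-44814611 on the minus strand, the *Runx3* window at chr4:135120504-135120530 on the plus strand and the single *Runx2* site at chr17:44814696-44814714. With the first transcribed base counted as 0, the pairs begin at 27 bases after the start site in *Runx1*, 22 bases after it in *Runx2* and at position -135 in *Runx3*, and the single *Runx2* site begins at -81. The same base, g, lies between the paired sites in all 3 windows, and ag follows the second site in each. The *Runx1* and *Runx2* windows also share aaac before the pair and agt after it, while the flanks otherwise differ in part. The downstream promoters of *Runx1* and *Runx3* and the promoters of *Cbfb* and *Atf4* held no such match. GC boxes (GGGCGG, searched on both strands, in 35.7% of promoters) were found 3 times in the downstream *Runx3* promoter and 4 times in the *Cbfb* promoter. The GC content was 45% and 69% in the upstream and downstream *Runx1* promoters, 63.7% and 77.3% in those of *Runx3*, 45.3% in *Runx2*, 69.7% in *Cbfb* and 59% in *Atf4*. These matches describe sequence, and no binding was measured here. The downstream start sites lie 128745 bases (*Runx1*) and 31900 bases (*Runx3*) from the upstream ones. A count per gene does not separate the transcripts of alternative starts, for *Runx2* and the other factors too.

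**Figure D1:**
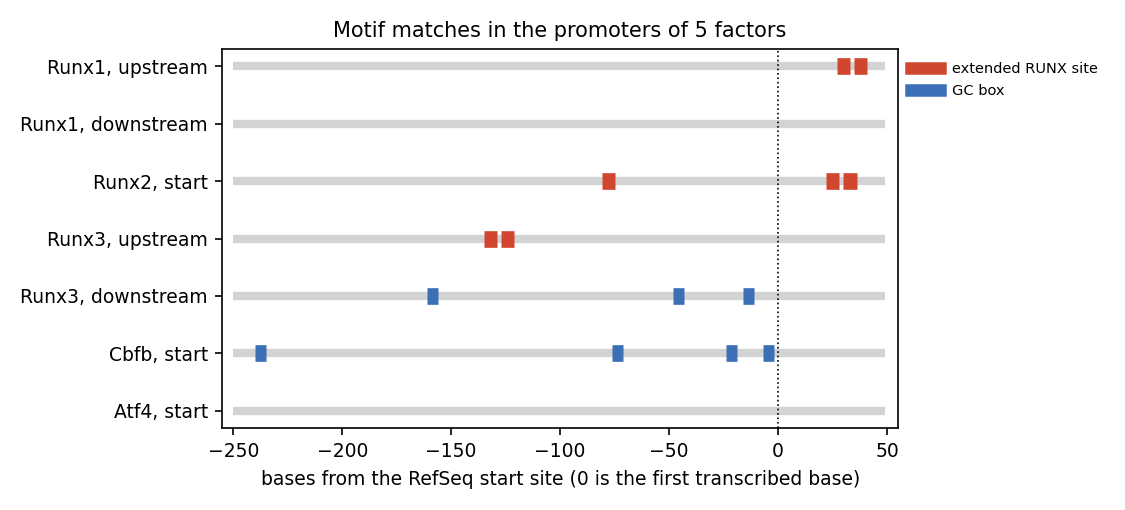
Matches to the extended RUNX site (red) and the GC box (blue) in the RefSeq promoters of 5 factors, each drawn from 250 bases before to 50 bases after its start site (x axis, bases, 0 is the first transcribed base). Red marks appear in pairs in the upstream *Runx1*, the *Runx2* and the upstream *Runx3* promoter, and the blue marks sit in the downstream *Runx3* and the *Cbfb* promoter.

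Per kilobase of exon, the factors spanned a wide range of levels in this tissue. *Sp7* was the highest at 58.7 ± 6.99 CPM per kilobase of all annotated exons (SD, n = 10 libraries), followed by *Atf4* at 36.5 ± 3.36 and *Cbfb* at 23.9 ± 1.42. *Runx2*, at 15.3 ± 1.78, and *Zfp521*, at 15.3 ± 2.43, were not separable, with *Runx2* above *Zfp521* in 5 of 10 libraries. *Runx3*, at 3.32 ± 0.270, and *Runx1*, at 2.53 ± 0.401, were the lowest. *Runx3* was above *Runx1* in 10 of 10 libraries, but the ranges of the 2 genes overlapped. Except for these last pairs, the ranges of neighbours in this order lay apart. The order depends on the length used: by the mean length of the coding transcripts, chosen after the data were seen, it was *Atf4* (72.2 CPM per kilobase), *Sp7* (66.8), *Runx2* (51.3), *Cbfb* (30.4), *Zfp521* (27.8), *Runx1* (11.2) and *Runx3* (5.79). *Sp7* and *Atf4* led and *Runx1* and *Runx3* came last by either length.

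By edgeR none of the 7 factors passed an adjusted p-value of 0.05 between the 2 labels, against a background of 0.0184% of all genes tested (3 genes, *Fgfr2* among them), of which 0.00615% were lower and 0.0123% higher by label. DESeq2's Wald test, which called 0.602% of all genes tested, and limma voom, which called 0.0184%, also called 0 of 7. The unadjusted threshold of 0.05 was passed by 1 of 7, *Sp7*, where 7.49% of all genes tested passed. By limma voom it was passed by 2 lower and 1 higher factor, where 3.56% and 3.76% of all genes tested passed. With libraries scaled by their total alone 2 lower factors passed, where 710 of the 16267 genes tested were lower. Leaving out a library gave up to 2 lower (without control-labelled replicate 2 or mutant-labelled replicate 1). It gave up to 1 higher (without control-labelled replicate 2 or mutant-labelled replicate 2). Over all genes, 433 to 683 were lower and 386 to 807 higher when a library was left out. By sign, 6 of the 7 factors were lower in the mutant-labelled libraries and *Zfp521* was higher, where 49.7% of all genes were lower. The median log2 fold change of the 7 factors was -0.087, beside 0.00073 for all genes tested. It was -0.043 without mutant-labelled replicate 2, -0.052 by limma voom and -0.14 with libraries scaled by their total alone. In each of the 7 factors the 2 groups overlapped, while 1.48% of all genes tested had groups that did not overlap (0.701% lower and 0.781% higher by label).

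**Figure D2:**
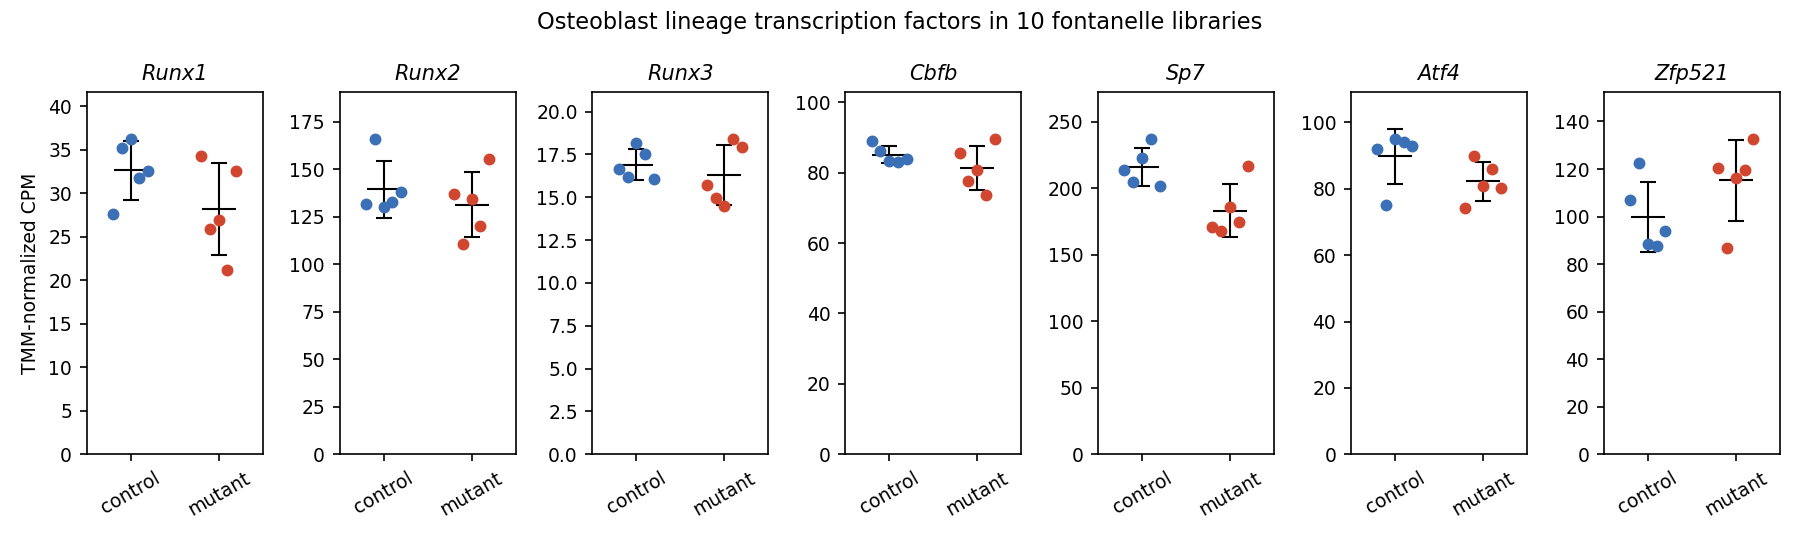
TMM-normalized CPM (y axis, linear from 0) of the 7 factors in each control-labelled (blue) and mutant-labelled (red) library, with the group mean and SD as black bars (n = 5 each). For *Sp7*, 4 of the 5 mutant-labelled libraries lie below all control-labelled ones, and in every panel the groups overlap.

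*Sp7*, the zinc finger factor of committed osteoblasts, lies on chromosome 15 from 102356606 to 102367182 (GRCm38, minus strand) and was counted at 3680 to 5967 per library. In control-labelled replicates 1 to 5 it was at 214, 205, 222, 237 and 202 CPM. In mutant-labelled replicates 1 to 5 it was at 171, 168, 185.4, 174 and 217 CPM. Of the mutant-labelled libraries, 4 lay below all control-labelled ones, and replicate 5 lay among them. By edgeR's quasi-likelihood fit the log2 fold change was -0.24 (standard error 0.078, 95% interval -0.41 to -0.067, adjusted p = 0.522), a level 15.1% lower by label. An exact permutation test (two-sided, on log2 CPM) over the 252 groupings of the libraries gave p = 0.0317, where the smallest possible p is 0.00794. This p was 0.0556 when control-labelled replicate 3 or 4 was left out, and 0.0635 when mutant-labelled replicate 2 was. The genes whose log2 CPM followed *Sp7* most closely over the 10 libraries, among 11014 genes with a mean of at least 5 CPM, included *Bambi* (Pearson's r 0.966, Spearman's rho 0.988) and *Timp1* (r 0.958, rho 0.964). These libraries share tissue composition and scaling, so the likeness is a description.

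*Runx2*, the factor at the base of the lineage, lies on chromosome 17 from 44495987 to 44814797 (minus strand) and was counted at 2788 to 4835 per library. It was at 132, 166, 130.0, 133 and 138 CPM in control-labelled replicates 1 to 5. It was at 137, 111, 134, 120.0 and 155 CPM in mutant-labelled replicates 1 to 5. Control-labelled replicate 2 was the highest of all libraries, the other 4 control-labelled libraries lay close together, and the mutant-labelled libraries reached both below and above them. The means were 139.6 ± 15.0 and 131 ± 17.1 CPM (SD, n = 5 each), and the log2 fold change was -0.087 (standard error 0.097, 95% interval -0.30 to 0.13, adjusted p = 0.872 from edgeR). The interval spans a level 18.7% lower to 9.06% higher by label, so larger differences in total *Runx2* lie outside it. Leaving out control-labelled replicate 2 changed this to -0.0090, and leaving out mutant-labelled replicate 2, 4 or 5 to -0.025, -0.047 or -0.15. It was -0.14 with libraries scaled by their total alone and -0.021 by limma voom. The muscle markers of control-labelled replicate 2 were high, as given above, and mutant-labelled replicate 1, with muscle markers at 708 CPM, had *Runx2* at 137 CPM. An antisense gene, *Runx2os1*, shares 519 bases (5.9%) of the *Runx2* exons. It was counted at 18 to 29 per library, against at least 2788 for *Runx2*. The span also overlaps *Supt3* on the other strand, which shares 0 exon bases with it. The genes most like *Runx2* over the 10 libraries were *Net1* (r 0.936, rho 0.770), *Polh* (r 0.926, rho 0.855) and *Pot1a* (r 0.917, rho 0.903).

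*Runx1* lies on chromosome 16 from 92601466 to 92826149 (minus strand) and was counted at 497 to 1026 per library. It was at 27.6, 35.2, 36.2, 31.8 and 32.6 CPM in control-labelled replicates 1 to 5. It was at 34.3, 26.0, 26.9, 21.2 and 32.6 CPM in mutant-labelled replicates 1 to 5. Of the mutant-labelled libraries 3 lay below all control-labelled ones, while the other two lay among them. Its log2 fold change was -0.21 (standard error 0.123, 95% interval -0.48 to 0.054, adjusted p = 0.716 from edgeR; two-sided exact permutation test, p = 0.151). Without mutant-labelled replicate 4, the lowest library, it was -0.12. When libraries were scaled by their total alone, the exact permutation p was 0.0397. Marker lists of blood-derived cells ran both ways by label. Macrophage markers (6 of 8 lower) summed to 434 to 591 CPM in the control-labelled and 394 to 505 CPM in the mutant-labelled group, osteoclast markers (7 of 8 lower) to 2260.3 to 3642 and 2511 to 2829 CPM, and erythroid markers (3 of 5 lower) to 742 to 1907 and 652 to 1274 CPM, all with overlap, while the immature blood and granulocyte sum was higher without overlap. In that last list, *Myb*, a factor of blood progenitors, was at 2.20 ± 0.642 and 4.32 ± 1.996 CPM, and *S100a8*, of granulocytes, at 15.8 ± 6.21 and 29.8 ± 6.15 CPM (SD, n = 5 each). An antisense gene, *Gm26626*, shares 106 bases (0.9%) of the *Runx1* exons and is not in the table.

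*Runx3*, on chromosome 4 from 135120652 to 135177990 (plus strand), rested on 339 to 471 counts per library. It was at 16.6, 16.2, 18.2, 17.5 and 16.1 CPM in control-labelled replicates 1 to 5. It was at 15.7, 15.0, 14.5, 18.4 and 17.9 CPM in mutant-labelled replicates 1 to 5. The mutant-labelled libraries fell into 3 below and 2 within or above the narrow control-labelled range. The log2 fold change was -0.052 (standard error 0.079, 95% interval -0.22 to 0.12, adjusted p = 0.915 from edgeR). In the alternatives it stayed between -0.091 and -0.0039.

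Within the RUNX family, *Runx2* made up 72.0% ± 2.36 of the summed CPM per kilobase of all annotated exons by control label and 72.6% ± 1.60 by mutant label (SD, n = 5 each; two-sided exact permutation test, p = 0.706). *Runx1* made up 12.4% ± 1.10 and 11.4% ± 1.49 (exact permutation test, p = 0.270), and *Runx3* 15.5% ± 1.64 and 16.03% ± 2.11 (exact permutation test, p = 0.659). The makeup of the family thus differed between the labels by about a percentage point or less. The shares depend on the exon lengths, which take in all annotated transcripts of each gene, those of both promoters of *Runx1* and *Runx3* included.

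*Cbfb*, the common partner, lies on chromosome 8 from 105170674 to 105217989 (plus strand) and was counted at 1729 to 2516 per library. It was at 89.0, 86.3, 83.2, 83.2 and 84.0 CPM in control-labelled replicates 1 to 5. It was at 85.5, 77.5, 80.8, 73.6 and 89.5 CPM in mutant-labelled replicates 1 to 5. It was the steadiest of the factors among the control-labelled libraries, and mutant-labelled replicate 5 was the highest of all. For *Cbfb* the log2 fold change was -0.065 (standard error 0.057, 95% interval -0.19 to 0.060, adjusted p = 0.827 from edgeR). Leaving out mutant-labelled replicate 2, 4 or 5 changed it to -0.043, -0.023 or -0.10, and leaving out control-labelled replicate 1 to -0.041. It was -0.11 with scaling by library total alone and -0.041 by limma voom. The log2 ratio of *Cbfb* to the sum of the 3 *Runx* genes, each per kilobase of exon, was 0.16 ± 0.12 by control label and 0.20 ± 0.084 by mutant label (SD, n = 5 each; two-sided exact permutation test, p = 0.643).

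*Atf4*, on chromosome 15 from 80255184 to 80257541 (plus strand), was counted at 1600 to 2484 per library. It was at 92.1, 75.1, 94.9, 94.2 and 92.9 CPM in control-labelled replicates 1 to 5. It was at 74.3, 89.9, 80.8, 86.0 and 80.1 CPM in mutant-labelled replicates 1 to 5. Of the control-labelled libraries 4 lay above all mutant-labelled ones, and replicate 2 lay near the lowest of them. *Atf4* had a log2 fold change of -0.13 (standard error 0.074, 95% interval -0.29 to 0.035, adjusted p = 0.718 from edgeR; two-sided exact permutation test, p = 0.143). Without control-labelled replicate 2 the difference in mean log2 CPM was -0.19 (exact permutation test, p = 0.0159), and the adjusted p from edgeR was 0.494. Without mutant-labelled replicate 1 the log2 fold change was -0.083. Control-labelled replicate 2 and mutant-labelled replicate 1, the lowest of all for *Atf4*, were the ones with high muscle markers.

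*Zfp521*, on chromosome 18 from 13687013 to 13972787 (minus strand), was counted at 2078 to 3571 per library. It was at 107, 122, 88.4, 87.5 and 94.0 CPM in control-labelled replicates 1 to 5. It was at 121, 86.8, 116, 119.8 and 133 CPM in mutant-labelled replicates 1 to 5. Most mutant-labelled libraries lay among the higher values, but replicate 2 was the lowest of all and control-labelled replicate 2 the second highest. The log2 fold change was 0.21 (standard error 0.120, 95% interval -0.057 to 0.47, adjusted p = 0.718 from edgeR; two-sided exact permutation test, p = 0.198). It was 0.30 when either control-labelled replicate 2 or mutant-labelled replicate 2 was left out, and passed the adjusted threshold in neither case. Mutant-labelled replicate 2 also had the highest neuronal markers and the lowest summed osteoblast markers. The genes most like *Zfp521* over the 10 libraries were *Dkk3* (r 0.960, rho 0.855), *Nedd9* (r 0.955, rho 0.952) and *Gemin5* (r 0.953, rho 0.697).

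**Figure D3:**
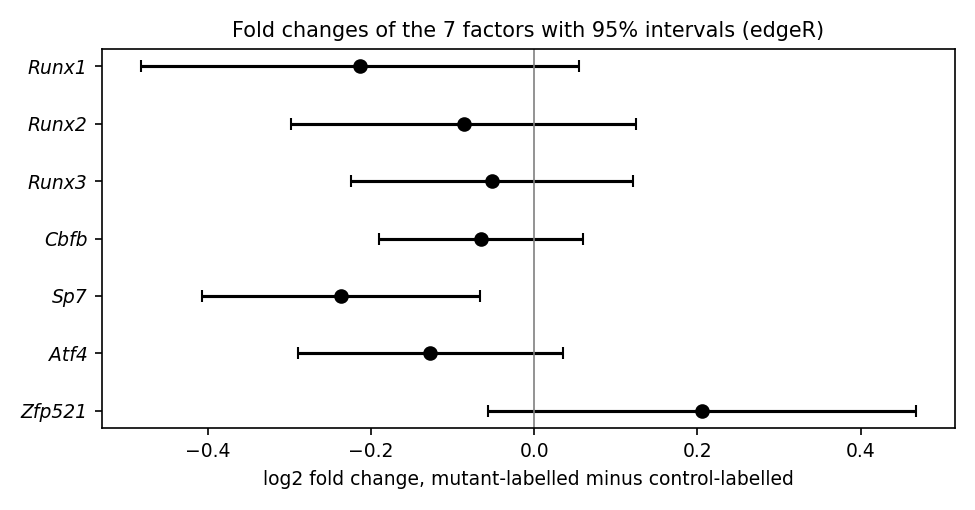
Log2 fold change of each factor, mutant-labelled minus control-labelled (x axis), from edgeR's quasi-likelihood fit, with points as estimates and bars as 95% intervals. The interval of *Sp7*, from -0.41 to -0.067, lies below 0 before adjustment over all genes, and the other intervals include 0.

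Ratios within a library do not depend on how libraries are scaled to each other, and 7 were compared by two-sided exact permutation tests. The log2 ratio of *Zfp521* to *Runx2*, an antagonist against its target, was -0.30, -0.44, -0.56, -0.60 and -0.55 in control-labelled replicates 1 to 5. It was -0.18, -0.35, -0.21, -0.0026 and -0.23 in mutant-labelled replicates 1 to 5. The ratio was higher in 4 of 5 mutant-labelled libraries than in any control-labelled one, and the groups overlapped through control-labelled replicate 1 and mutant-labelled replicate 2. The means were -0.49 ± 0.12 and -0.20 ± 0.13 (SD, n = 5 each), a difference of 0.29 (exact permutation test, p = 0.0159, adjusted over the 7 ratios 0.111). The ratio takes *Zfp521* and *Runx2* from all cells of the tissue together, and the AF connective tissue markers, which did not overlap between labels, moved in the same direction.

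For *Sp7* to *Runx2*, the later against the earlier factor, the log2 ratio was 0.63 ± 0.21 by control label and 0.48 ± 0.10 by mutant label, a difference of -0.15 (exact permutation test, p = 0.198). Without control-labelled replicate 2, the library with the highest *Runx2*, the difference was -0.23 (exact permutation test, p = 0.0317), and without control-labelled replicate 4 it was -0.10. The other ratios to *Runx2* differed by -0.14 for *Runx1* (exact permutation test, p = 0.246), 0.033 for *Runx3* (p = 0.825), -0.036 for *Atf4* (p = 0.857) and 0.022 for *Cbfb* (p = 0.825). The value for *Runx1* was -0.071 without mutant-labelled replicate 4 and -0.075 without control-labelled replicate 3. Adjusted over the 7 ratios, all of these p-values were 0.574 or above. Those of *Runx3*, *Atf4* and *Cbfb* changed sign when single libraries were left out, so no direction is read from them.

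**Figure D4:**
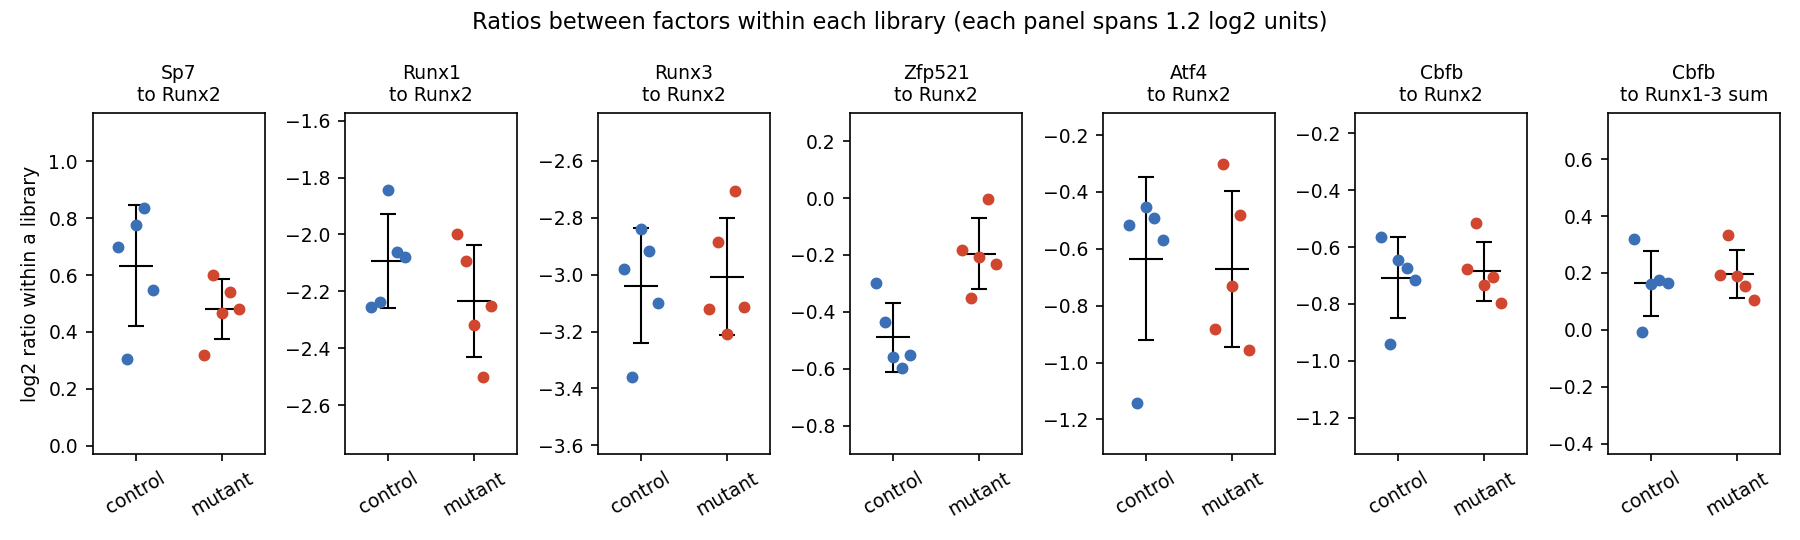
Log2 ratios between factors within each library (y axis, each panel spans 1.2 log2 units), control-labelled in blue and mutant-labelled in red, with mean and SD as black bars (n = 5 each). The ratio of *Zfp521* to *Runx2* shifts from a mean of -0.49 to -0.20, and control-labelled replicate 2 is the lowest point of the panel of *Atf4* to *Runx2*, at -1.14.

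Genes that act with or after the factors were taken as 5 lists. They were chosen with earlier results of these data known, so their counts and directions are descriptions and no independent support. The first holds 20 bone matrix and mineralization genes downstream of RUNX2 and SP7, and 20 of 20 were lower by label, with a median log2 fold change of -0.25. By edgeR none passed an adjusted p-value of 0.05, and 10 of 20 were lower with an unadjusted p-value under 0.05, where 3.82% of all genes tested were. By DESeq2's Wald test 5 of them passed the adjusted threshold, all lower (*Alpl*, *Dmp1*, *Ibsp*, *Spp1* and *Tnfsf11*), where 0.258% of all genes tested were called lower by it, and by limma voom 0 did. The list contains the 10 osteoblast markers given above and is not independent of them. By unadjusted p the leading genes were *Tnfsf11* (RANKL, the osteoclast differentiation ligand), at 7.59 ± 0.906 and 5.10 ± 0.463 CPM (SD, n = 5 each), and *Dmp1*, an osteocyte matrix protein, at 523 ± 92.3 and 350.4 ± 57.7 CPM. They were followed by *Alpl*, the phosphatase that frees phosphate for mineral, at 504 ± 48.9 and 386 ± 46.0 CPM, and *Ibsp*, bone sialoprotein, at 1704 ± 185.4 and 1137 ± 266 CPM. Groups did not overlap in *Tnfsf11* and *Alpl*, 2 of the 20, where 0.701% of all genes tested were lower without overlap. The log2 fold changes were -0.58 for *Tnfsf11*, -0.58 for *Dmp1*, -0.38 for *Alpl* and -0.58 for *Ibsp*, with adjusted p-values from edgeR of 0.184, 0.321, 0.336 and 0.348. The collagen genes *Col1a1* and *Col1a2*, the most abundant of the list, had log2 fold changes of -0.048 and -0.016. The median stayed between -0.33 and -0.21 when each library was left out in turn.

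The second list holds 25 genes of the amino acid response that ATF4 activates. By label 19 were lower and 6 higher, with a median log2 fold change of -0.11. None passed the adjusted threshold by edgeR, DESeq2 or limma voom. The unadjusted threshold was passed by 5 lower genes, where 3.82% of all genes tested were lower by it, and by 1 higher gene, where 3.68% were. The lower genes with the smallest p were *Ddit4*, an inhibitor of mTOR complex 1, at 84.4 ± 7.59 and 74.4 ± 2.82 CPM, *Nupr1*, a stress-induced chromatin protein, at 21.9 ± 4.44 and 17.6 ± 0.772 CPM, *Sesn2*, a leucine sensor, at 12.8 ± 1.86 and 10.2 ± 1.80 CPM, and *Ppp1r15a* (GADD34), which restores translation after stress, at 18.8 ± 2.01 and 16.5 ± 0.832 CPM (SD, n = 5 each). The higher gene was *Slc7a5*, a transporter of large neutral amino acids, at 24.9 ± 2.82 and 28.5 ± 2.20 CPM. The 5 lower genes became 2 without control-labelled replicate 3 or 5 or mutant-labelled replicate 3 or 4, and 3 without control-labelled replicate 1 or 2 or mutant-labelled replicate 2 or 5. The 1 higher gene became 0 without control-labelled replicate 1 or 3 or mutant-labelled replicate 1 or 2, and 2 without control-labelled replicate 2. By limma voom 3 were lower and 2 higher, where 3.56% and 3.76% of all genes tested were. With libraries scaled by their total alone 0 were higher, where 258 of the 16267 genes tested were.

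The third list holds 26 cofactors of RUNX proteins and SP7, such as the TLE corepressors and histone deacetylases. Here 18 were higher and 8 lower by label, with a median of 0.029, and this sign turned to -0.014 when libraries were scaled by their total alone, while leaving out control-labelled replicate 2 gave 0.070, control-labelled replicate 5 gave 0.0092 and mutant-labelled replicate 4 gave 0.069. The unadjusted threshold was passed by 2 higher and 0 lower genes, where 3.68% and 3.82% of all genes tested did so, and the adjusted threshold by 0 in edgeR, DESeq2 and limma voom alike. *Runx1t1* (ETO), a corepressor best known as the fusion partner of RUNX1 in leukaemia, was at 9.38 ± 1.59 and 13.6 ± 3.96 CPM (SD, n = 5 each; log2 fold change 0.54, adjusted p = 0.526 from edgeR). *Tle4*, a Groucho corepressor, was at 19.7 ± 1.62 and 24.1 ± 5.20 CPM (log2 fold change 0.29, adjusted p = 0.656). The spread of both was wider among the mutant-labelled libraries, and their groups overlapped. The 2 higher genes became 1 without control-labelled replicate 1, 4 or 5, by limma voom, and with libraries scaled by their total alone. Of all genes tested, 3.76% were higher by limma voom, and 258 of 16267 with scaling by the total alone. A lower gene, 1 of the list, passed this threshold without mutant-labelled replicate 2.

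The fourth list holds 13 genes around ZFP521, namely its paralog *Zfp423*, the EBF factors and subunits of the NuRD corepressor complex. By label 6 were higher and 7 lower, with a median of -0.028, and by edgeR none passed the adjusted or the unadjusted threshold. No direction is read from this median, which was 0.0043, 0.0056 and 0.00086 without control-labelled replicates 2, 3 and 5, and 0.014 and 0.013 without mutant-labelled replicates 3 and 5. DESeq2 and limma voom also called 0 after adjustment, and before it 1 lower gene, where 3.43% of all genes tested were lower by DESeq2, and 0 genes. The most abundant were *Chd4*, the NuRD remodelling ATPase, at 289 ± 11.7 and 282 ± 23.9 CPM, and *Rbbp7*, a histone-binding subunit, at 97.3 ± 5.49 and 99.2 ± 8.13 CPM (SD, n = 5 each). *Zfp423* was at 29.9 ± 2.55 and 32.3 ± 2.26 CPM (log2 fold change 0.11, adjusted p = 0.745 from edgeR). *Ebf1*, the EBF factor that ZFP521 antagonizes, was at 46.3 ± 4.32 and 45.1 ± 7.53 CPM (log2 fold change -0.039, adjusted p = 0.955 from edgeR). The smallest p of the list was that of *Ebf2*, a related factor, at 12.4 ± 4.71 and 8.33 ± 3.17 CPM (log2 fold change -0.58, unadjusted p = 0.0633, adjusted p = 0.669 from edgeR). *Zfp423*, *Ebf1* and *Ebf2* were named after their values were seen. A single gene of this list was lower at the unadjusted threshold without control-labelled replicate 1 or mutant-labelled replicate 1. The same number was lower with libraries scaled by their total alone, where 710 of the 16267 genes tested were. A single gene was higher without control-labelled replicate 2.

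The fifth list holds 26 other transcription factors of osteoblasts, of which 25 were tested. By label 19 were lower and 6 higher, with a median of -0.089, and 4 lower and 1 higher passed an unadjusted p-value of 0.05, where 3.82% and 3.68% of all genes tested did. None passed the adjusted threshold by edgeR, DESeq2 or limma voom. The lower genes were *Gli1*, an effector and target of hedgehog signaling, at 52.0 ± 6.83 and 42.9 ± 3.26 CPM, *Fos*, an immediate early AP-1 subunit, at 19.0 ± 7.55 and 12.04 ± 3.16 CPM, and the homeobox factors *Dlx3*, at 56.3 ± 4.55 and 47.0 ± 7.90 CPM, and *Dlx6*, at 18.6 ± 2.50 and 15.6 ± 1.61 CPM (SD, n = 5 each). *Sox4*, a SOX factor of progenitor cells, was at 167 ± 4.96 and 195 ± 30.4 CPM, with groups that overlapped. *Fosl1*, the member not tested, did not pass the filter on low counts. The 4 lower genes became 1 without control-labelled replicate 3 or mutant-labelled replicate 4, 2 without control-labelled replicate 4 or 5, and 8 without mutant-labelled replicate 5. The 1 higher gene became 0 without control-labelled replicate 1, and 2 without control-labelled replicate 2 or mutant-labelled replicate 1, 2 or 3. With libraries scaled by their total alone 8 were lower and 0 higher, where 710 and 258 of the 16267 genes tested were. The median over the list was then -0.14. By limma voom 1 was lower and 2 were higher, where 3.56% and 3.76% of all genes tested were.

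**Figure D5:**
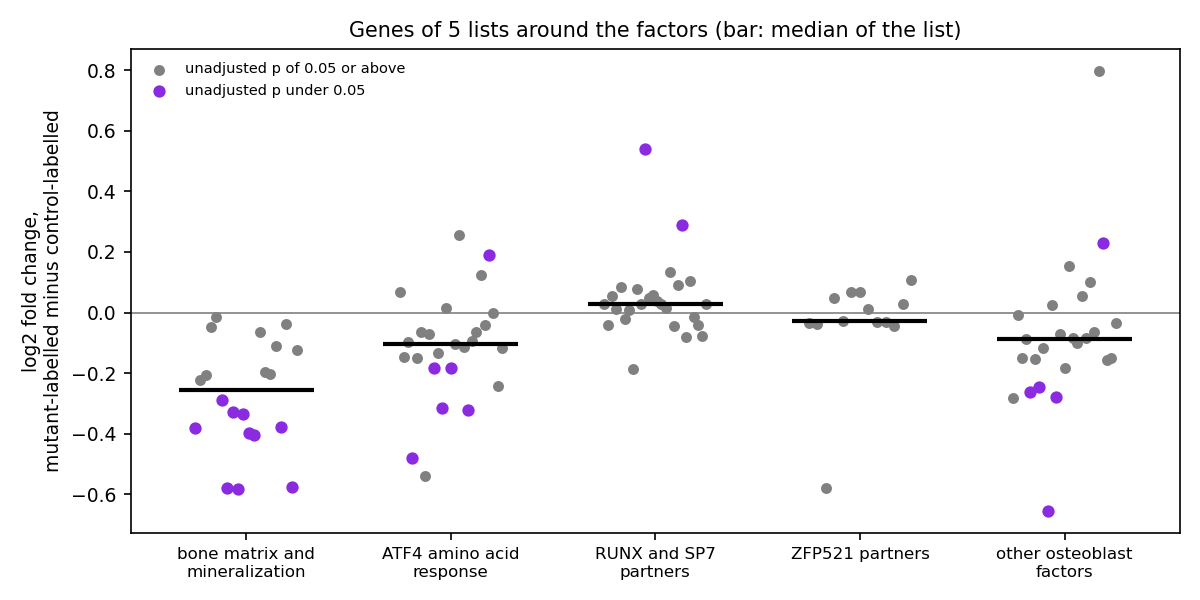
Log2 fold change, mutant-labelled minus control-labelled (y axis), of each tested gene in the 5 lists, with purple for an unadjusted p-value under 0.05, grey for the others and a black bar at the list's median. All 20 bone matrix and mineralization genes lie below 0, with a median of -0.25, while the medians of the other lists lie between -0.11 and 0.029.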

How the data were processed

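Bulk RNA-seq of 5 control-labelled and 5 mutant-labelled libraries was used (stranded kit, single reads of total RNA with a RIN above 8 per the labels). The authors deposited 1 table of estimated counts per gene, not scaled between libraries, of which 67.2% were whole numbers, and no gene summed to less than 10 over the libraries. The submitters' processing notes name Partek and mm10. The aligner, the counter and its use of strand are not given in the sources used here. Gene positions are those of GENCODE M21, with the same start and end as in the authors' table for 22296 of 22533 matched symbols. All sample columns were mapped to a library by its library name.

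Counts were rounded (by at most 0.24 for the 7 factors), filtered by edgeR's expression filter (16267 genes tested, 6813 left out), normalized by TMM (factors 0.900 to 1.13) and tested in edgeR by quasi-likelihood, with the label as the single term and Benjamini-Hochberg adjustment over all genes tested and a threshold of 0.05 (R 4.3.3, edgeR 4.0.16, limma 3.58.1, DESeq2 1.42.0). The fit was also run on counts simulated from its own estimates, which cannot reveal a misfit to these libraries. Single values were compared by two-sided exact permutation tests of log2 CPM (prior count 0.5). The biological coefficient of variation was 18.9%. The 20 pairs of libraries within a group correlated at 0.955 to 0.980 and differed by more than sampling noise. *Xist* was present in 3 libraries of each group. The factors were expressed per kilobase of the union of their GENCODE exons. Genes named from the lists are those with an unadjusted p-value under 0.05, at most the 4 smallest in each direction, or else the 2 most abundant. *Col1a1*, *Col1a2*, *Col2a1*, *Col10a1*, *Zfp423*, *Ebf1* and *Ebf2* were named outside this rule, after their values were seen. For *Runx2*, *Sp7* and *Zfp521* the 3 genes most like them by Pearson's r over the libraries were named, except 1 that is not reported here. The members and lists were chosen with earlier results of these data known. Promoter sequences were from RefSeq on GRCm38.p6. None was found there for *Sp7*, and *Zfp521*, on chromosome 18, was left out of the promoter search. Alternatives were other scalings, filters and tests, the replicate number as a block, *Xist* as a covariate, a table without ribosomal RNA genes, and leaving out each library in turn.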

Additional observations from a re-analysis of the deposited data

Results flagged for a closer look

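Among 28 sets of 5 libraries checked (each factor and each ratio in each group), 3 held a library whose gap to its nearest neighbour took a larger part of the whole range than the 95% critical value of Dixon's test, where chance gives about 1 in 20. All of them were in control-labelled replicate 2. Its *Runx2* was at a log2 CPM of 7.37 against 7.11 in the next library (gap 0.758 of the range). Its *Atf4* was at a log2 CPM of 6.23 against 6.53 in the next (0.869 of the range). Its log2 ratio of *Atf4* to *Runx2*, which is built from the same values, was -1.14 against -0.57 in the next (0.832 of the range). The summed skeletal muscle markers of that library were at 713 CPM, the highest of the 10, and their part in these values was not tested.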

How the results depend on the processing

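The log2 fold change of each of the 7 factors kept its direction and stayed above an adjusted p-value of 0.05 in all 19 alternatives run for it, from -0.28 to -0.12 for *Runx1*, -0.15 to -0.0090 for *Runx2*, -0.091 to -0.0039 for *Runx3*, -0.11 to -0.023 for *Cbfb*, -0.30 to -0.20 for *Sp7*, -0.18 to -0.083 for *Atf4* and 0.15 to 0.30 for *Zfp521*. The adjusted p of *Sp7* ranged from 0.222 (DESeq2's Wald test) to 0.903. The number of genes called was 3, against 98 by DESeq2's Wald test, 1 by library size alone, 1 with *Xist* as a covariate, 1219 at an unadjusted p-value under 0.05 (added after the data were seen) and 1 to 6 when each library was left out, with 6 without mutant-labelled replicate 2 and 1 without control-labelled replicate 3, 4 or 5 or mutant-labelled replicate 1, 3, 4 or 5. At an unadjusted p-value under 0.05, 598 genes were higher and 621 lower by TMM, and 258 higher and 710 lower by library size alone. When each library was left out in turn, 386 to 807 were higher and 433 to 683 lower. The causes were not tested.

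The replicate numbers did not pair the libraries: same-numbered libraries correlated at -0.21 to 0.14 in their deviations from the group means and 0 of 5 matched best with their own number. With the replicate block 1 gene was called, the ATF4 list had 3 instead of 5 lower genes past the unadjusted threshold, the list of other osteoblast factors had 2 higher instead of 1, and the difference in the log2 ratio of *Zfp521* to *Runx2* was 0.294 (exact sign-flip test, p = 0.0625, the smallest that 5 pairs allow).

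When each library was left out in turn, the difference in log2 ratio to *Runx2* ran from -0.23 to -0.10 for *Sp7*, -0.20 to -0.071 for *Runx1*, 0.25 to 0.34 for *Zfp521*, -0.047 to 0.083 for *Runx3*, -0.16 to 0.036 for *Atf4* and -0.037 to 0.058 for *Cbfb*, and that of *Cbfb* to the *Runx* sum from -0.011 to 0.071. *Runx3* turned sign without control-labelled replicate 2 (-0.047) or mutant-labelled replicate 4 (-0.043), *Atf4* without control-labelled replicate 3 (0.0094) or mutant-labelled replicate 1 (0.017) or 5 (0.036), and both *Cbfb* ratios without control-labelled replicate 2 (-0.037, -0.011) or mutant-labelled replicate 2 (-0.021, -0.0022). *Runx3*, with 339 to 471 counts per library, had the fewest counts of the 7 factors.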
